A study of Homo sapiens with 2 samples.

Results

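The respiratory chain subunits described here were the nuclear-encoded structural subunits of complexes I to V of the inner mitochondrial membrane. They were taken by gene symbol, without use of any measured value: symbols beginning with NDUFA, NDUFB, NDUFC, NDUFS, NDUFV, UQCR, COX4I, COX5, COX6, COX7, COX8 or ATP5, together with SDHA, SDHB, SDHC, SDHD and CYC1. Assembly factors with an NDUFAF symbol, COX7A2L, ATP5S and ATP5SL were left out. This gave 87 of the 18930 genes in the deposited table, with 38 in complex I, 4 in complex II, 10 in complex III, 18 in complex IV and 17 in complex V. NDUFA4 and its paralogue NDUFA4L2 were counted in complex IV, where the NDUFA4 protein resides despite its name. A mitochondrial component term stood in the table's annotation of 86 of the 87 subunits and of 8.8% of all genes.

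The data were 1 RNA sequencing library labelled DR, for cells resistant to the DNA-alkylating drug dacarbazine (DTIC), and 1 labelled WT, for the wild-type control. Their labels name the cells as A375, a line derived from human melanoma, grown in DMEM with serum. The labels state 105 days of drug treatment, spelled DITC, for both samples, the WT sample included. The study raised its DR cells by prolonged exposure to DTIC and compared them with the parental cells, to look for features of drug resistance.

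Each column of counts was assigned through the sample description that carries its name. The column names differ by a single punctuation mark, both resemble the title of the DR sample, and every direction given here rests on that assignment. The library labelled DR held 54878310 reads and the library labelled WT 35294629. With 1 library per group there was no estimate of the spread between cultures, so no difference was tested and no p-value is given. Intervals are 95% Clopper-Pearson intervals of read counting alone, and reads without molecular identifiers are not independent molecules.

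The cell type label was compared with marker genes. Of 12 melanocytic markers 10 had counts, with medians of 0.18 (DR) and 0.373 (WT) in CPM, the read count scaled to a common library size. SOX10, a defining factor of the melanocyte lineage, had 3 and 0 reads, while MITF stood at 34.6 and 34.7 CPM. All 12 plasma cell markers had counts, with medians of 386 and 254 CPM, and the summed level was 5280 and 6250 CPM. JCHAIN, the joining chain of secreted antibodies, reached 2010 and 2920 CPM. Keratinocyte, myeloid, T cell and fibroblast markers had medians between 0.0143 and 7.43 CPM. The libraries are therefore called only by their labels, and the part of the cell type in the differences below was not tested. In bulk RNA a difference in the mix of cells and a difference in RNA per cell cannot be told apart.

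Complexes I to IV pass electrons from NADH and succinate to oxygen by way of ubiquinone and cytochrome c, and complexes I, III and IV pump protons as they do so. Complex V, the ATP synthase, lets the protons flow back and makes ATP. Some subunits of complexes I, III, IV and V are encoded in mitochondrial DNA and all others in the nucleus, so that these complexes are built from products of both genomes. Many nuclear subunit genes are housekeeping genes whose promoters carry sites for the nuclear respiratory factor NRF1, for the ETS family factor GABP (also called NRF2) and for YY1. Melanoma cells differ widely in their use of oxidative phosphorylation, and the pathway has been studied in relation to drug tolerance in this tumour.

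Sites of this kind were looked for by their letters in RefSeq promoter sequences (GRCh38.p14, 250 bases before to 50 bases after each gene's start, both strands). Promoters were found for 69 of the 87 subunits. The NRF1 core CGCATGCG stood in 10 of the 69 windows (14.5%), against 2.19% of all 27305 promoters. The ETS letters CCGGAAGT stood in 9 (13.0%, against 4.44%), and the YY1 letters AAGATGGCG in 8 (11.6%, against 1.85%). At least 1 of these 3 motifs was found in 24 subunit promoters (34.8%) and in 7.94% of all promoters, and no match overlapped a match of another motif. The letters CCAAT, a general promoter element, were present in 22 (31.9%) and in 35.7%. Among promoters of the genes that passed the read filter, the shares were 3.42% for NRF1, 7.47% for ETS, 3.34% for YY1 and 36.1% for CCAAT.

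The 250 bases before the start are shown for 4 subunits with an NRF1 match, the ones with log2 fold changes farthest from 0 among carriers of an NRF1 or YY1 match within those 250 bases. Carriers whose match lay after the start, such as NDUFA9, are not shown. They show how the palindromic core sits at different distances from the start. The sequence is written 5′ to 3′ on the strand of the gene, with the NRF1 core in capitals.
ATP5C1 (complex V, chr10:7787927-7788176, plus strand): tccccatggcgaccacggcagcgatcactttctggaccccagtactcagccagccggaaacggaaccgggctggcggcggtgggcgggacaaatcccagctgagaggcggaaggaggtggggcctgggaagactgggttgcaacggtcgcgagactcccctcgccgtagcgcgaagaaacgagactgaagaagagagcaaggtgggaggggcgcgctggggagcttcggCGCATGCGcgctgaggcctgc
ATP5G2 (complex V, chr12:53676084-53676333, minus strand): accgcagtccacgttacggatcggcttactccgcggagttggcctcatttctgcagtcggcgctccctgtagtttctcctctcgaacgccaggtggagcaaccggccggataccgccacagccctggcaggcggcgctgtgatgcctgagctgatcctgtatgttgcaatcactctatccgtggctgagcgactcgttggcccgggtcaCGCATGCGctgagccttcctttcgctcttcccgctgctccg
COX6A1 (complex IV, chr12:120437863-120438112, plus strand): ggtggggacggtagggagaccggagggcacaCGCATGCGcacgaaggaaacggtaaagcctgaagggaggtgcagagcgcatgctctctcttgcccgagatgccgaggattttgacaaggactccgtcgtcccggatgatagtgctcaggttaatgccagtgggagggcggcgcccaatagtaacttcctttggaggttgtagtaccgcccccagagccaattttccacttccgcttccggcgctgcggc
ATP5I (complex V, chr4:674277-674526, minus strand): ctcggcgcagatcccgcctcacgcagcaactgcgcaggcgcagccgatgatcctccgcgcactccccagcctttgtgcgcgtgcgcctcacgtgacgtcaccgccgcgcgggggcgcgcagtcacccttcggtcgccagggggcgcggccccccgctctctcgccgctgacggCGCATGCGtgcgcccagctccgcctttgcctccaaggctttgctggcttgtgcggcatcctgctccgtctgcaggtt

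Counted so that −1 is the last base before the start, the core began at position −21 in ATP5C1, −41 in ATP5G2, −219 in COX6A1 and −77 in ATP5I. The other carriers of the NRF1 core were ATP5J, NDUFA8, NDUFB4, NDUFS6, NDUFS7 and SDHD. The ETS letters were found in ATP5H, COX5B, COX8A, NDUFA13, NDUFS1, SDHD, UQCR11, UQCRH and UQCRQ. All NRF1 and ETS matches began before the start, whereas 7 of the 8 YY1 matches began within the first 50 transcribed bases. The YY1 carriers were ATP5J, NDUFA6, NDUFA7, NDUFA9, NDUFS4, NDUFS7, SDHB and UQCRC1. By complex, the NRF1 core was present in 4 of 11 promoters of complex V, 4 of 33 of complex I, 1 of 3 of complex II, 1 of 15 of complex IV and 0 of 7 of complex III. A match of letters is a description of the sequence and not evidence that a factor was bound.

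Of the 87 subunits 85 had counts, and COX4I2 and COX6A2, the lung-enriched and muscle-enriched forms of complex IV subunits, were without a count. COX8C had 2 reads in each library, below the minimum of 10 reads over both, which left 84 subunits. Of these, 76 had a mean of at least 10 CPM. Fold changes are the library labelled DR over the library labelled WT, as log2 of CPM plus 0.5, so that negative values are lower in DR and low levels are drawn toward 0.

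Most subunits differed little between the libraries, and their levels in the library labelled DR leaned lower. No subunit was higher by 1 or more on the log2 scale (2-fold), where 7.48% of all 16210 genes were. Lower by 1 or more were 2 subunits, UQCRFS1 and ATP5J2-PTCD1, beside 4.16% of all genes. Past 0.5 on the log2 scale (1.41-fold), 2 of the 84 were higher, NDUFA2 and COX6B2, beside 17.7% of all genes. Another 8 were lower, beside 13.9%, among them UQCRFS1, ATP5J2-PTCD1, NDUFA4L2, ATP5L2, COX4I1, NDUFS3 and NDUFB1. Both higher subunits, and ATP5J2-PTCD1, ATP5L2 and COX4I1 among the lower ones, had fractional counts, in which reads may have been split with other genes. Within 0.5 of 0 in either direction were 74 of the 84 subunits (88.1%) and 68.4% of all genes.

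The median log2 fold change of the 84 subunits was −0.13, with quartiles of −0.29 and 0.05, and that of all genes was 0.01. Values below 0 were found for 56 subunits (66.7%) and for 48.9% of all genes. The counting interval lay below 0 for 46 subunits (54.8%) and above 0 for 20 (23.8%), beside 34.6% and 35.8% of all genes. The subunits are abundant genes, so they were also read beside genes at a mean of 10 CPM or more. That limit did not match the levels. Median levels in DR and WT were 93.6 and 94.0 CPM for these subunits and 47.6 and 49.3 CPM for such genes. At a mean of 10 CPM or more the median was −0.14 for the 76 subunits and −0.03 for 9860 genes, and the standard deviation across genes was 0.29 and 0.70. Values below 0 made up 65.8% of these subunits and 53.2% of such genes. Values within 0.5 of 0 made up 92.1% and 73.7%. At this level the counting interval lay below 0 for 43 subunits, beside 44.4% of such genes, and above 0 for 19, beside 37.8%. In the same set, 1 subunit (1.32%) was higher past 0.5, beside 12.1% of such genes, and 5 (6.58%) were lower, beside 14.2%. These figures describe 2 libraries, and whether other cultures would give them was not tested.

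**Figure D1:**
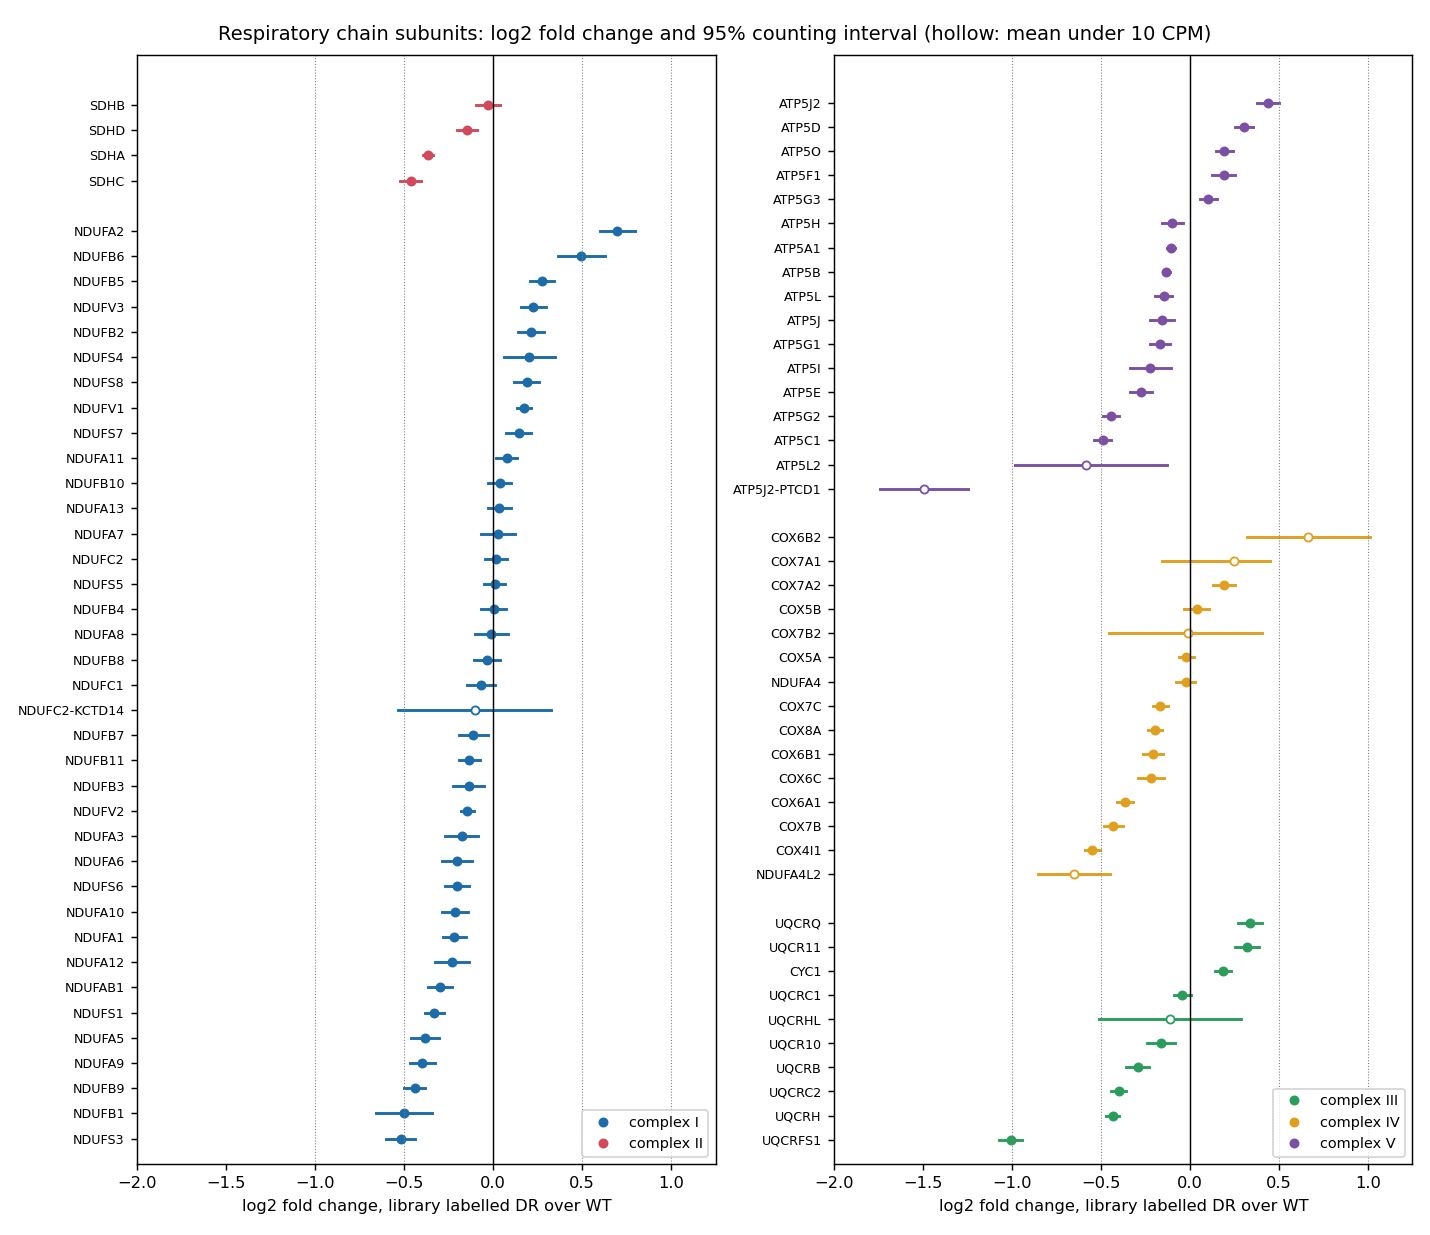
Log2 fold change, library labelled DR over library labelled WT, of 83 subunits grouped by complex, as points with 95% counting intervals (1 library each), dotted lines at 0.5 and 1 in size, and hollow points for subunits with a mean under 10 CPM. Most points lie within 0.5 of 0, UQCRFS1 stands at −1.01, and the widest intervals belong to the hollow points.

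Summed over the 85 subunits with counts, the level was 9567 CPM in DR and 10560 CPM in WT, a ratio of 0.906 (0.902 to 0.910). Every complex had a lower sum in DR. Complex II, which links the citric acid cycle to the chain, had the lowest ratio, with 689.5 and 855.1 CPM and a log2 ratio of −0.31 (−0.33 to −0.29). Complex IV summed to 1528 and 1763 CPM (−0.21, −0.22 to −0.19), and complex III to 1179 and 1354 CPM (−0.20, −0.22 to −0.18). The sums of complex V, 3163 and 3385 CPM (−0.10, −0.11 to −0.09), and complex I, 3008 and 3204 CPM (−0.09, −0.10 to −0.08), lay closest together. Without UQCRFS1 the log2 ratio of complex III was −0.14. Median log2 fold changes were −0.26 for complex II, −0.17 for IV, −0.15 for V, −0.14 for III and −0.08 for I.

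Complex I, the NADH dehydrogenase, is an L-shaped enzyme whose peripheral arm holds a module that oxidises NADH (N) and a module that reduces ubiquinone (Q). The Q module had the lowest median log2 fold change of the parts of complex I, −0.39 over 6 subunits, beside −0.06 over the 10 of the N module and −0.03 over the 21 of the membrane arm. Modules of this size were not compared by a test.

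NDUFS3, a core subunit of the Q module, had 2507 and 2261 reads and stood at 45.1 and 64.9 CPM (−0.52, −0.60 to −0.44). The accessory Q module subunits NDUFA9, at 61.2 and 80.8 CPM, and NDUFA5, at 54.2 and 70.8 CPM, were also lower, by log2 fold changes of −0.40 and −0.38. Against them, the iron-sulphur subunits NDUFS7 and NDUFS8 of the Q module were slightly higher. NDUFS7 stood at 81.8 and 74.1 CPM (0.14, 0.07 to 0.21) and NDUFS8 at 84.8 and 74.4 CPM (0.19, 0.12 to 0.26). The Q module was therefore split, with intervals on both sides of 0.

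NDUFA2, a small accessory subunit of the N module, was the subunit of complex I with the highest fold change. It had 2896 reads (52.1 CPM) in the library labelled DR and 1114 reads (32.0 CPM) in the library labelled WT, a log2 fold change of 0.70 (0.60 to 0.80). NDUFV1, which binds NADH and the flavin that takes its electrons, stood at 299 and 265 CPM (0.17, 0.14 to 0.21). Its iron-sulphur partner NDUFV2 stood at 246 and 273 CPM (−0.15, −0.18 to −0.11). NDUFS1, the largest core subunit and carrier of several iron-sulphur clusters, stood at 113.5 and 142.9 CPM (−0.33, −0.38 to −0.28). The catalytic core of the N module thus held values on both sides of 0. Of its accessory subunits, NDUFV3 (0.22) and NDUFS4 (0.20) were higher, NDUFS6 (−0.20), NDUFA6 (−0.20) and NDUFA12 (−0.23) were lower, and the interval of NDUFA7 spanned 0.

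The membrane arm subunits, which surround the mitochondrially encoded proton pumps, ranged from −0.50 to 0.50. NDUFB1 had the lowest log2 fold change among them, −0.50 (−0.66 to −0.35), with 11.99 and 17.18 CPM. NDUFB6 had the highest, with 25.8 and 18.2 CPM (0.50, 0.36 to 0.63). NDUFB9 followed at the low end, with 94.8 and 129 CPM (−0.44), and NDUFAB1, the acyl carrier protein that also serves fatty acid synthesis in the organelle, stood at 76.5 and 94.1 CPM (−0.30). NDUFB5 (0.28) and NDUFB2 (0.21) were higher. NDUFA1, NDUFA10, NDUFA3, NDUFB3, NDUFB11 and NDUFB7 had intervals below 0 and log2 fold changes between −0.22 and −0.11, and NDUFA11 had an interval just above 0 (0.08). For NDUFA8, NDUFA13, NDUFB4, NDUFB8, NDUFB10, NDUFC1, NDUFC2 and NDUFS5 the interval spanned 0. The read-through gene NDUFC2-KCTD14 had 13 and 10 reads, which allowed no distinction.

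Complex II, the succinate dehydrogenase, is the only complex of the chain encoded wholly in the nucleus. All 4 of its subunits had values below 0. SDHA, the flavoprotein that oxidises succinate, had 22076 reads (397 CPM) in the library labelled DR and 17888 reads (513 CPM) in the library labelled WT, a log2 fold change of −0.37 (−0.40 to −0.34). SDHC, a membrane anchor, stood at 93.3 and 129 CPM (−0.46, −0.52 to −0.41). The other anchor, SDHD, stood at 114 and 127 CPM (−0.15, −0.20 to −0.09). SDHB, the iron-sulphur subunit, differed least, with 84.5 and 86.2 CPM (−0.03, −0.10 to 0.04), and its sign turned when library totals were used for scaling. The counts of SDHA and SDHD were fractional, and 4 and 7 pseudogenes are named after them.

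UQCRFS1, the Rieske iron-sulphur protein that takes electrons from ubiquinol in complex III, had the largest difference of any subunit with a mean of at least 10 CPM. The library labelled DR had 3328 reads (59.9 CPM) and the library labelled WT 4220 reads (121.1 CPM), although WT was the less deeply sequenced. The log2 fold change of −1.01 (−1.07 to −0.94) corresponded to a 2.01-fold higher level in WT (1.92 to 2.11). The counts were whole, and 3 pseudogenes are named after the gene. The value lay at the edge of the 2-fold limit and was −0.97 with library totals and −0.96 with a pseudocount of 5 CPM. Cytochrome c1, encoded by CYC1, receives the electrons from the Rieske protein and differed in the other direction, with 206 and 181 CPM (0.19, 0.14 to 0.23).

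The remaining subunits of complex III also lay on both sides of 0. Of the core proteins, UQCRC2 stood at 183 and 242 CPM (−0.40, −0.44 to −0.36) and UQCRC1 at 157 and 162 CPM (−0.05, −0.09 to 0.00). UQCRH, the acidic hinge protein at the cytochrome c1 surface, stood at 250 and 339 CPM (−0.44, −0.47 to −0.40). UQCRB (78.5 and 96.4 CPM, −0.29) and UQCR10 (56.4 and 63.3 CPM, −0.17) were lower as well. UQCRQ was the highest of the complex, with 90.0 and 71.2 CPM (0.34, 0.27 to 0.41), followed by UQCR11 with 95.6 and 76.6 CPM (0.32, 0.25 to 0.39). Within 1 complex the fold changes of abundant subunits therefore covered the span from UQCRFS1 to UQCRQ.

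Complex IV, cytochrome c oxidase, reduces oxygen. COX4I1, a regulatory subunit that joins early in assembly, had 9572 reads (172 CPM) in the library labelled DR and 8805 reads (253 CPM) in the library labelled WT, a log2 fold change of −0.55 (−0.59 to −0.51). COX5A, its partner in assembly, stood at 222 and 225 CPM (−0.02, −0.06 to 0.02), and COX5B, which binds zinc, at 76.2 and 74.3 CPM (0.04, −0.03 to 0.11). The other small subunits mostly had lower levels in DR. COX7B stood at 107.8 and 145.6 CPM (−0.43) and COX6A1 at 150.6 and 194.2 CPM (−0.37), while COX6C, COX6B1, COX8A and COX7C had log2 fold changes between −0.22 and −0.17. COX7A2 was the only one of the complex at 10 CPM or more with an interval above 0, with 5556 and 3054 reads (0.19). NDUFA4 stood at 131 and 133 CPM, with an interval that spanned 0.

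Complex V makes ATP in its F1 head and conducts protons through its membrane part. ATP5B and ATP5A1, the beta and alpha subunits that form the catalytic ring, had the most reads of all subunits, a count that also grows with gene length. ATP5B had 50189 and 34561 reads (903 and 991 CPM, −0.13, −0.15 to −0.11), and ATP5A1 had 37263 and 25221 (671 and 723 CPM, −0.11, −0.13 to −0.09). ATP5C1, the gamma subunit that forms the turning shaft, was the lowest of the complex at 10 CPM or more, with 133.4 and 187.7 CPM (−0.49, −0.54 to −0.44). ATP5D, the delta subunit at the foot of the shaft, was higher, with 165.5 and 134.0 CPM (0.30, 0.25 to 0.35). ATP5E, the epsilon subunit beside it, was lower, with 86.9 and 105 CPM (−0.28). Subunits that occur together in the head thus differed in direction.

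In the membrane part and stalks, ATP5J2, subunit f, was the highest, with 123.1 and 90.9 CPM (0.44, 0.38 to 0.50). ATP5O, which joins the outer stalk to the head, and ATP5F1, subunit b of that stalk, had log2 fold changes of 0.19 each. ATP5H, ATP5I, ATP5J and ATP5L lay between −0.22 and −0.10. ATP5J2-PTCD1, a read-through gene that joins ATP5J2 to its neighbour PTCD1, had 160 reads (2.88 CPM) in DR and 315 reads (9.04 CPM) in WT, a log2 fold change of −1.496 (−1.75 to −1.25). It shares exons with both partners, its counts and those of ATP5J2 were fractional, and PTCD1 itself had a log2 fold change of 0.40, so its value is uncertain. With a pseudocount of 5 CPM it was −0.83.

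Where a subunit exists in alternative forms, the broadly expressed form carried nearly all the reads. Levels of different genes are compared only per length, as CPM per kilobase. COX6B1 stood at 190 and 220 CPM per kilobase in the libraries labelled DR and WT, and COX6B2, its testis-enriched form, at 1.85 and 1.06. COX6B2 rested on 173 and 62 reads and had a log2 fold change of 0.67 (0.32 to 1.01), which was 0.26 with a pseudocount of 5 CPM. COX7A2 stood at 141 and 124 CPM per kilobase, while COX7A1, the heart and muscle form, had 9 and 2 reads and a log2 fold change of 0.25 (−0.16 to 0.45). COX7B stood at 236 and 319 CPM per kilobase and COX7B2 at 0.585 and 0.599, from 14 and 9 reads. COX8A reached 386 and 443 CPM per kilobase, and COX8C, with 2 reads in each library, lay under 3 reads (0.054 and 0.0861 CPM), the level a count of 0 allows.

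NDUFA4L2, known as a target of hypoxia signalling, was the most abundant of the minor forms. It stood at 4.94 and 7.99 CPM per kilobase beside 63.6 and 64.7 for NDUFA4, and its 350 and 355 reads gave a log2 fold change of −0.65 (−0.86 to −0.45). The ATP synthase c subunit, which forms the rotating ring, is encoded by 3 genes with the same mature protein. ATP5G2 stood at 184 and 251 CPM per kilobase, ATP5G1 at 186 and 209, and ATP5G3 at 60.3 and 56.1. Their log2 fold changes were −0.44 for ATP5G2, −0.17 for ATP5G1 and 0.10 for ATP5G3, so the gene with the lowest level per length was the one not lower in DR. UQCRHL, a copy of UQCRH, had 70 and 49 fractional reads, and ATP5L2, a copy of ATP5L, had 13 and 21, with a log2 fold change of −0.59 that was −1.07 with a pseudocount of 0.1 CPM and −0.10 with one of 5 CPM.

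**Figure D2:**
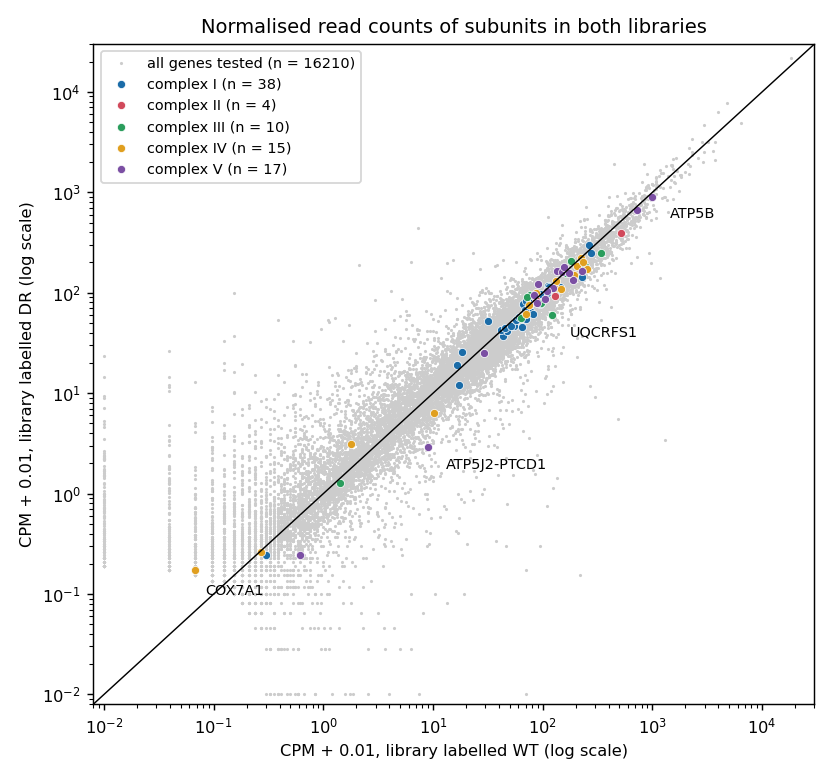
CPM plus 0.01 of each gene in the library labelled DR (vertical, log scale) against the library labelled WT (horizontal, log scale), with 84 subunits coloured by complex over all 16210 genes in grey and a line of equal values. The subunits lie along the line between COX7A1 near the bottom and ATP5B near the top, with UQCRFS1 and ATP5J2-PTCD1 below it.

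Per length, the 76 subunits with a mean of at least 10 CPM had medians of 97.8 CPM per kilobase in DR and 112 in WT. Complex IV had the highest medians, 215 and 287 CPM per kilobase over 11 subunits, followed by complex V with 184 and 176 over 15. Complex I stood at 88.7 and 82.3 over 37 subunits, complex II at 77.4 and 82.6 over 4, and complex III at 71.6 and 98.9 over 9. ATP5B had the highest level of complex V, 486 and 534 CPM per kilobase, COX7C that of complex IV, 411 and 462, and UQCRH that of complex III, 399 and 541. NDUFV2 led complex I with 263 and 291, and SDHA complex II with 152 and 197.

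Subunits that stand together in the assembled complexes were not at like RNA levels. The highest level was 27.2 times the lowest within complex I in the library labelled DR, and 24.6 times within complex III. The lowest levels, NDUFA5 with 9.67 and 12.6 CPM per kilobase and UQCRB with 16.2 and 19.9, belonged to genes given lengths of 5602 and 4846 bases, beside a median of 816 bases for the subunits. How the length column was made is not given in the sources used here, so these low values depend on it. The order of the levels was nearly the same in both libraries, with a Spearman coefficient of 0.966 across the 76 subunits and 0.922 across 9860 genes. Both coefficients are across genes in the same pair of libraries, share gene length, and are a description.

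**Figure D3:**
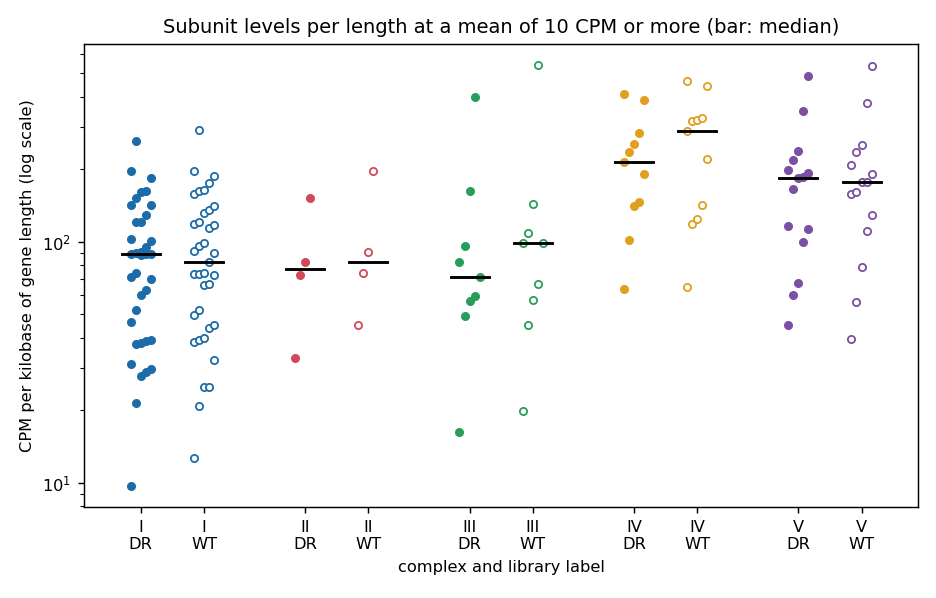
CPM per kilobase of gene length (log scale) of the 76 subunits with a mean of at least 10 CPM, by complex, with filled points for the library labelled DR, open points for the library labelled WT and bars at the medians. The medians of complex IV and complex V lie above those of complexes I, II and III in both libraries.

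The genes that assemble, feed and regulate the chain were read beside the subunits. The 52 assembly factors had a median log2 fold change of 0.01, with 25 below 0. Past 0.5, 2 were higher and 3 lower. CMC2, a twin-cysteine protein needed for cytochrome c oxidase, had the largest difference among them, with 969 and 1928 reads (17.4 and 55.3 CPM, −1.64, −1.75 to −1.53). TIMMDC1, which helps to build the membrane arm of complex I, was the highest, with 68.3 and 40.1 CPM (0.76). By complex the medians were 0.01 over 17 factors for complex I, 0.17 over 4 for complex II, −0.02 over 6 for complex III, −0.07 over 22 for complex IV and 0.03 over 4 for complex V, with TMEM70 in 2 of these lists. Assembly factors were thus nearer to the median of all genes than the subunits were, a difference that was not tested.

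The 20 genes for electron carriers, coenzyme Q synthesis and enzymes that pass electrons to coenzyme Q had a median of −0.21, with 11 below 0. CYCS, which encodes cytochrome c, stood at 178 and 231 CPM (−0.37, −0.41 to −0.33). Past 0.5, 4 of the 20 were lower and 1 was higher. The 13 genes of the citric acid cycle had a median of −0.09, and DLST, a component of the 2-oxoglutarate dehydrogenase complex, was the only one past 1, with 64.3 and 134 CPM (−1.05, −1.11 to −0.98). Of the supercomplex factors, HIGD1A stood at 41.8 and 81.4 CPM (−0.95), HIGD2A at 64.8 and 44.9 CPM (0.52) and COX7A2L at 56.3 and 57.9 CPM. The 13 mitochondrially encoded subunits are not analysed here.

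Among 18 regulators of mitochondrial biogenesis the median was −0.15, and 13 lay below 0. YY1, NRF1 and the GABP subunits, factors that bind the YY1, NRF1 and ETS letters searched in the promoters, had lower levels in the library labelled DR. GABPB2, a beta subunit of GABP, had the lowest log2 fold change, −1.01 (−1.14 to −0.87), with 13.3 and 27.3 CPM. YY1 stood at 68.2 and 114 CPM (−0.74), GABPB1 at 27.6 and 40.0 CPM (−0.52), NRF1 at 21.1 and 28.5 CPM (−0.43) and GABPA, the DNA-binding subunit, at 47.8 and 56.5 CPM (−0.24). The coactivator PPARGC1A stood at 10.3 and 9.15 CPM, with an interval that spanned 0. MYC was the only regulator higher past 0.5, with 978 and 560 CPM (0.80, 0.78 to 0.83). TFAM (−0.30), CREB1 (−0.41), PPRC1 (−0.32), ESRRA (−0.14) and TFB2M (−0.15) had intervals below 0, and POLRMT had one above (0.34). Intervals of PPARGC1B, TFB1M, C10orf2, POLG and POLG2 spanned 0.

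Subunits with the promoter letters were set beside those without. The 10 subunits with the NRF1 core had a median log2 fold change of −0.18, beside −0.11 for the 57 others with a promoter. For the ETS letters the medians were −0.10 over 9 and −0.14 over 58. For the YY1 letters they were −0.04 over 8 and −0.14 over 59. For the letters CCAAT they were −0.20 over 21 and −0.08 over 46. Carriers were thus lower than the others for NRF1 and CCAAT and higher for ETS and YY1, differences that were not tested.

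The ribosomal proteins, other large sets of stoichiometric subunits, served for comparison. The 77 mitochondrial ribosomal proteins had a median of −0.07, with 2 higher and 5 lower past 0.5. The 81 cytoplasmic ones had a median of 0.20, with 7 higher and 1 lower. The 1509 other genes with a mitochondrial term had a median of −0.03. The medians of the cytoplasmic ribosomal proteins and of the respiratory chain subunits thus lay on opposite sides of 0, although 18 of the 81 ribosomal proteins were below 0 and 28 of the 84 subunits above it. No test between them was possible.

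**Figure D4:**
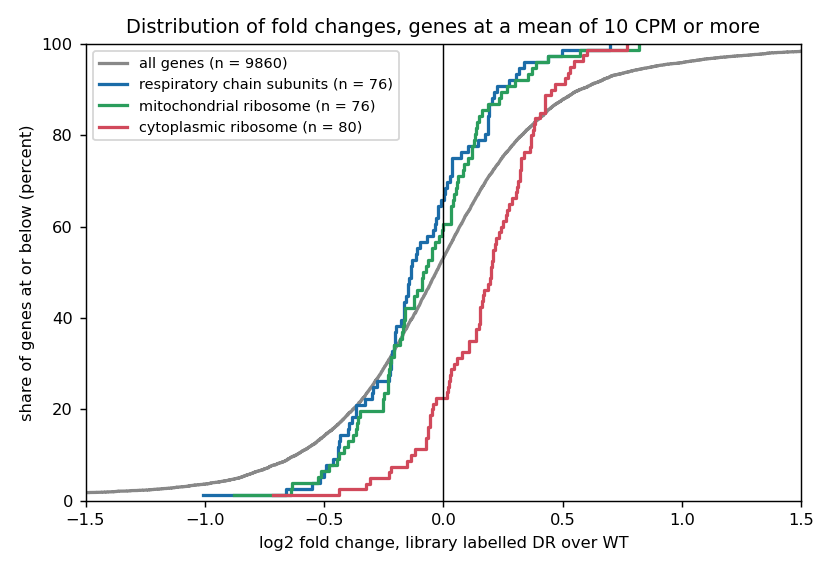
Share of genes (percent) at or below each log2 fold change, library labelled DR over library labelled WT, for 9860 genes at a mean of 10 CPM or more, 76 respiratory chain subunits, 76 mitochondrial ribosomal proteins and 80 cytoplasmic ribosomal proteins. The curve of the subunits crosses 50% at −0.14, that of all genes at −0.03 and that of the cytoplasmic ribosome at 0.20.

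Subunit genes are scattered over 22 chromosomes, and each was set beside the 10 tested genes on either side of it, with other subunits left out. The 76 subunits with a mean of at least 10 CPM tended to have the sign of their neighbours, as did other genes of that level. Pearson's coefficient between a subunit's log2 fold change and the median of its neighbours was 0.64 (Spearman 0.64) across the 76 genes. Across 9746 other genes of that level it was 0.29 (Spearman 0.38), but their log2 fold changes spread more widely (standard deviation 0.70, against 0.29). With 5 genes on each side Pearson's coefficient was 0.55 for the subunits, with 25 it was 0.69, and with neighbours at 10 CPM or more it was 0.72. In each of these settings it was 0.29 for the other genes. These are coefficients across genes of the same pair of libraries, so that all points share the libraries and nearby subunits share neighbours.

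Of the 76 subunits, 53 (69.7%) had the sign of their neighbours' median, as did 62.9% of the other genes. The 19 subunits with the lowest neighbour medians (−0.43 to −0.09) were all below 0 themselves, with a median of −0.30. Of the 19 with the highest neighbour medians (0.19 to 0.51), 15 were above 0, with a median of 0.14. Of all 76 subunits 50 were below 0, and the other genes were not counted by such groups. Subtracting the neighbours' median lowered the standard deviation across subunits from 0.29 to 0.22 and left a median difference of −0.13. For the other genes the standard deviation went from 0.70 to 0.67 and the median difference was −0.05. With neighbours at 10 CPM or more the median difference was −0.10 for the subunits and −0.001 for the other genes. Of the 76 subunits, 61 lay below the median of their neighbours and 15 above it, among them NDUFA2. The share of other genes that lay below their neighbours was not counted. Whether gene copy number or another regional property differed between the libraries was not tested.

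Some of the subunits far from 0 are given as examples. Around UQCRFS1 on chromosome 19 the neighbours had a median of −0.43, and 18 of 20 were below 0. The others were VSTM2B (1.185), which is next to it, and PLEKHF1 (0.68), both under 10 CPM. Neighbours were taken by gene order, whatever their distance. Those at 10 CPM or more included PDCD5 (−0.69), URI1 (−0.67), POP4 (−0.56), CCNE1 (−0.43) and C19orf12 (−0.125), and their median over 10 genes was −0.50. Around COX4I1 on chromosome 16 the median of the 20 neighbours was −0.21, and 13 were below 0, while over the 13 neighbours at 10 CPM or more it was −0.58. The genes next to it were EMC8 (−0.83) and IRF8 (0.22). Around NDUFA2 on chromosome 5 the median of the 20 neighbours was 0.28, and 6 were below 0. Over the 11 neighbours at 10 CPM or more the median was 0.35. Of these, APBB3 (0.743) and ANKHD1 (0.696) were the highest and stood near NDUFA2 itself. IK, WDR55 and HARS stood between 0.25 and 0.36 and ANKHD1-EIF4EBP3 at −0.10. UQCRFS1 and NDUFA2 were farther from 0 than the medians of their neighbours, whereas COX4I1 was farther than the median of all its neighbours but not of those at 10 CPM or more.

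**Figure D5:**
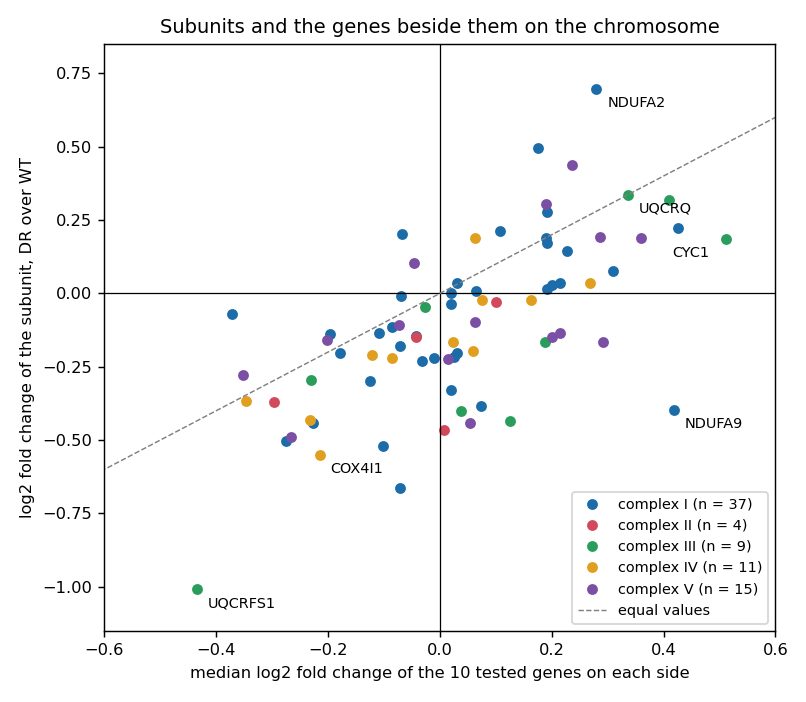
Log2 fold change of each of 76 subunits (vertical) against the median log2 fold change of the 10 tested genes on each side of it (horizontal), library labelled DR over library labelled WT, coloured by complex, with a dashed line of equal values. Points run from UQCRFS1 at the lower left to NDUFA2 at the upper right, and most lie below the dashed line.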

How the data were processed

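The authors deposited 1 table of estimated counts per gene for 1 library labelled DR and 1 labelled WT, with gene length and annotation. Their columns of test results (a log2 ratio, a p-value and a q-value) were not used. The submitters' processing notes name Bowtie 0.12.2 and hg19. The counting tool, annotation and strand setting are not given in the sources used here, so reads shared with copies cannot be told apart: 206 pseudogenes are named after 50 subunits, and 29 of the 84 tested subunits had fractional counts. Over all genes, 9108 of the 18267 with counts had fractional ones. Of 18930 genes, 663 had no count. The estimated counts were rounded and library sizes scaled by edgeR 4.0.16 TMM (factors 1.012435 and 0.987718, R 4.3.3). A sum of at least 10 reads was required, which left out 2057 genes, and log2 fold changes used CPM plus 0.5. With 1 library per group no count test could be fitted, so edgeR's quasi-likelihood test was not run, and calls are fold changes past 1 or 0.5. Counting intervals (95%, Clopper-Pearson) were taken on DR's part of a gene's reads (SciPy 1.17.1, Python 3.11.15). Scripts were tested on simulated counts.

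Subunits matched RefSeq by gene ID (87 of 87, with 19 now renamed). RefSeq GRCh38.p14 served for names, gene order and promoter sequences. Values were given in full for subunits past 1, the highest and lowest of each complex, the catalytic core and paralogue sets, and by range for the others. The values of 1 subunit are not reported here. Single companion and neighbouring genes beyond those past 1 and the regulators were chosen after their values were seen. The subunits, lists and limits were chosen with earlier results of these data known. Alternatives were DESeq2 1.42.0 size factors, library totals, pseudocounts of 0.1 and 5 CPM, no filter or 50 reads, subsets of subunits, other promoter windows and other numbers of neighbours. Restricting to 10 CPM and leaving out UQCRFS1 or ATP5A1, ATP5B and SDHA were added after seeing the data.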

Additional observations from a re-analysis of the deposited data

How the results depend on the processing

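No paired analysis was possible because each group had 1 library, and for the same reason no replicate could be left out. ATP5EP2, planned among the copies, is not analysed here. The count of subunits lower past 1 was 1 with library totals, without read-through and copy-like genes or with whole counts only, and 0 with a pseudocount of 5 CPM. Of all genes, 4.0% were lower past 1 with library totals and 2.05% with a pseudocount of 5 CPM. For whole counts, and without read-through and copy-like genes, the share of all genes was not counted. The count higher past 0.5 was 4 with a pseudocount of 0.1 CPM, 1 with 5 CPM, 0 with whole counts and 1 at 10 CPM or more. Beside these, 21.0% of all genes were higher with a pseudocount of 0.1 CPM, 9.22% with 5 CPM and 12.1% at 10 CPM or more. The count lower past 0.5 was 4 with a pseudocount of 5 CPM, 4 with whole counts and 5 at 10 CPM or more. Of all genes, 8.8% were lower with a pseudocount of 5 CPM and 14.2% at 10 CPM or more. With whole counts, where 55 of the 84 subunits remain, intervals above and below 0 numbered 13 and 28. The median of complex IV was −0.11 with no filter, which adds COX8C at 2 reads in each library.

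The log2 ratio of the summed level stayed below 0 for every complex in each setting run. With library totals it was −0.107 for all subunits, −0.055 for complex I, −0.275 for II, −0.165 for III, −0.171 for IV and −0.062 for V. With whole counts it was −0.106 for all, −0.045 for I, −0.275 for II, −0.157 for III and −0.171 for IV. Without UQCRFS1 it was −0.135 for all and −0.141 for III. Without ATP5A1, ATP5B and SDHA it was −0.134 for all, −0.227 for II and −0.072 for V. Library totals gave medians of 0.235 for the cytoplasmic ribosome and −0.099 for the F1 head. In the 250 bases before the start, 1 promoter held the YY1 letters. Beyond what these settings remove, the cause of these shifts was not tested. The sign of single subunits turned for NDUFB4 with DESeq2 size factors, and for 6 with library totals (COX5A, COX7B2, NDUFA4, NDUFA8, NDUFB8 and SDHB), all with intervals that spanned 0. Depth limited mainly the 8 tested subunits under 10 CPM, and the missing replicates limit every difference.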
